A study of Mus musculus with 29 samples.

Results

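The expression of 10 genes of myostatin, activin and bone morphogenetic protein (BMP) signalling was followed in the tibialis anterior (TA) muscle of aging mice. The genes were 3 ligands (Gdf5, Mstn and Inhba), the ligand-binding antagonist Fst, the receptors Acvr2a, Acvr2b and Bmpr1a, the inhibitory Smad7, and the target genes Id1 and Id3. They were chosen by their symbols, and all 10 were found among the 22537 gene symbols of the count table. Poly-A RNA of whole TA muscles was sequenced from 22 male C57BL/6 mice of the National Institute on Aging rodent colony, 7 of them at 6 months (6m), 7 at 24 months (24m) and 8 at 28 months or older (28m). The 24m mice were sequenced in the first run together with the 6m mice, and the 28m mice in the second run together with new libraries of the same 6m mice, which gave 29 libraries. No group had a treatment or a genetic change in the labels, and every mouse had been through a battery of physical tests before its muscle was taken. In the design text of the series the numbers of 24m and 28m mice (8 and 7) are swapped, and the labels of the samples were used here.

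Myostatin, the product of Mstn, is secreted by muscle fibres and restrains their growth. Together with the activins and GDF11 it binds the activin type II receptors and signals through Smad2 and Smad3, while the BMPs and GDF5 signal through BMP receptors and Smad1 and Smad5, whose targets include the Id genes. Both branches use Smad4, and BMP signalling is known to oppose the loss of muscle mass after a nerve is cut.

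The libraries held 17633475 to 33499162 counts (median 24250878). Values of single mice are counts per 1000000 (CPM) after TMM scaling (trimmed mean of M values) of all 29 libraries. The 6 muscle markers (such as Ckm and Acta1) summed to 107000 to 175000 CPM over the libraries, so the markers of the labelled tissue were abundant in all of them. A pair of libraries stood apart from their groups. Over all genes, 24m replicate 4 had log2 deviations from its group median with an SD of 1.11, against 0.260 to 0.524 for the other 24m mice. The first-run library of 6m replicate 4 deviated with an SD of 0.556, against 0.243 to 0.370 for the others of its group, and it differed from the second library of the same mouse by an SD of 0.617, against 0.237 to 0.283 for the other mice. Results at 24m are therefore also given without 24m replicate 4 for each gene, and without both libraries for all 10 genes together. At 28m, replicate 7 deviated most (0.602, against 0.242 to 0.518 for the others). It held 611 CPM of immune markers in sum, against 74.3 to 119 in the other 28m mice, and the highest sum of adipocyte markers, 601 CPM. In these whole muscles, fewer cells of a type and less RNA per cell cannot be told apart.

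Relative to transcript length, the BMP receptor and myostatin were the most abundant of the 10 transcripts in young muscle. In the second-run 6m libraries, the mean level was 18.2 ± 0.98 RPKM (CPM per kilobase of exon; SD, n = 7) for Bmpr1a and 17.4 ± 1.21 for Mstn, which did not differ beyond their spread. Id3 at 9.43 ± 0.839 RPKM, Id1 at 7.78 ± 1.53 and Acvr2a at 7.11 ± 0.820 came next, and Id1 did not differ from the other 2 beyond their spread. Smad7 lay at 3.11 ± 0.452 RPKM, Acvr2b at 1.50 ± 0.291 and Fst at 0.812 ± 0.366. Gdf5 at 0.152 ± 0.0315 RPKM and Inhba at 0.104 ± 0.0264 were the least abundant. At 28m the highest mean levels were those of Id3, with 18.4 ± 6.67 RPKM (n = 8), and Id1, with 16.1 ± 6.22, ahead of Bmpr1a with 15.1 ± 3.70 and Mstn with 12.8 ± 6.62, 4 values that overlapped within their spread. Gdf5 had reached 1.44 ± 0.963 RPKM at 28m, close to the 1.52 ± 0.677 of Fst and above the 0.916 ± 0.258 of Acvr2b.

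In the GENCODE annotation of GRCm38, Gdf5 lies at chr2:155941023-155945367 and Fst at chr13:114452290-114458951 on the reverse strand. On the forward strand are Mstn (chr1:53061640-53068079), Acvr2a (chr2:48814109-48903269), Acvr2b (chr9:119402118-119434995), Id1 (chr2:152736251-152737410) and Id3 (chr4:136143497-136145755). The promoters of 6 of the 10 genes were in the RefSeq table of GRCm38.p6 used here, which gives 250 bases before and 50 after the start of a gene. Those of Mstn, Acvr2a and Id3 are shown because these genes stand for the ligands, receptors and targets in the results that follow. Its start of Id3 is downstream of the GENCODE start given above, so that window lies inside the gene as GENCODE draws it. The windows are on the forward strand, at chr1:53061390-53061689 for Mstn, chr2:48813859-48814158 for Acvr2a and chr4:136143572-136143871 for Id3. Capitals mark CAGAC on either strand, the short sequence that Smad proteins are known to bind.
Mstn promoter: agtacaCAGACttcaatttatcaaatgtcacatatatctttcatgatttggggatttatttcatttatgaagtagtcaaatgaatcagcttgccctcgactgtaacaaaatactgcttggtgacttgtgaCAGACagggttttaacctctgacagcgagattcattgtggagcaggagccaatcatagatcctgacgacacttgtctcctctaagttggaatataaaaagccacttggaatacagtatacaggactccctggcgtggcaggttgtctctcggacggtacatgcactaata
Acvr2a promoter: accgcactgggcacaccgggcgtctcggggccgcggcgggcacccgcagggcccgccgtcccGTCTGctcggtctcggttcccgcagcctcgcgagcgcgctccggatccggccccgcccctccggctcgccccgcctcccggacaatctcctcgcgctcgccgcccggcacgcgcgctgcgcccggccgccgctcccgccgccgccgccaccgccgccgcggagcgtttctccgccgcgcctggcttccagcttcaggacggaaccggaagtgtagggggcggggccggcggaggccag
Id3 promoter: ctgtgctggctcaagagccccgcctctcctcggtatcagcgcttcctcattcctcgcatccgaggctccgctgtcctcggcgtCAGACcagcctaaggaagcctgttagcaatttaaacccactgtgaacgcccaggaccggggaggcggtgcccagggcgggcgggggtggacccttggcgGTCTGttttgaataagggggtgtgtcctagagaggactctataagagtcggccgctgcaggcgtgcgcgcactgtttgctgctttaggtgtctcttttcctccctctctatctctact
The Mstn promoter held 2 such sequences, starting 244 and 120 bases before the gene start, that of Id3 held 2 and that of Acvr2a 1. CAGAC was present in 49.6% of the 32851 promoters of this length, so its presence does not set these genes apart. The Mstn promoter also held 4 E boxes (CANNTG, the sequence bound by myogenic factors), found in 72.3% of all promoters, and 1 TATA box (TATAAA), found in 13.6%. No E box or TATA box was in the windows of Acvr2a and Id3, which are rich in G and C (80.3% and 60.0%, against 41.3% for Mstn). The GC-rich Smad sequence GGCGCC, present in 11.9% of promoters, was in that of Bmpr1a among these 6.

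At 28m, 6 of the 10 genes passed an adjusted p under 0.05 against 6m, 4 of them higher (Gdf5, Fst, Id1, Id3) and 2 lower (Acvr2a, Acvr2b). Over all 12994 genes tested, 47.3% passed, 24.3% higher and 22.9% lower, so a change with age was common in this muscle and the count for the 10 genes is near that background. By DESeq2 and by limma-voom 4 were higher and 2 lower as well, and no call was lost without replicate 7. Against the first-run 6m libraries 3 were higher and 1 lower, in 1 fit over all libraries 3 and 2, and with at least 10 counts in every library, where Gdf5 and Inhba were not tested, 3 and 2. After correction for gene length and GC content 4 were higher and 3 lower. In every 28m mouse Gdf5 lay above all 6m mice of the run, as did 5.65% of all genes, and Acvr2a lay below all of them in every 28m mouse, as did 6.66% of all genes. The plot of CPM by library shows these values.

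**Figure D1:**
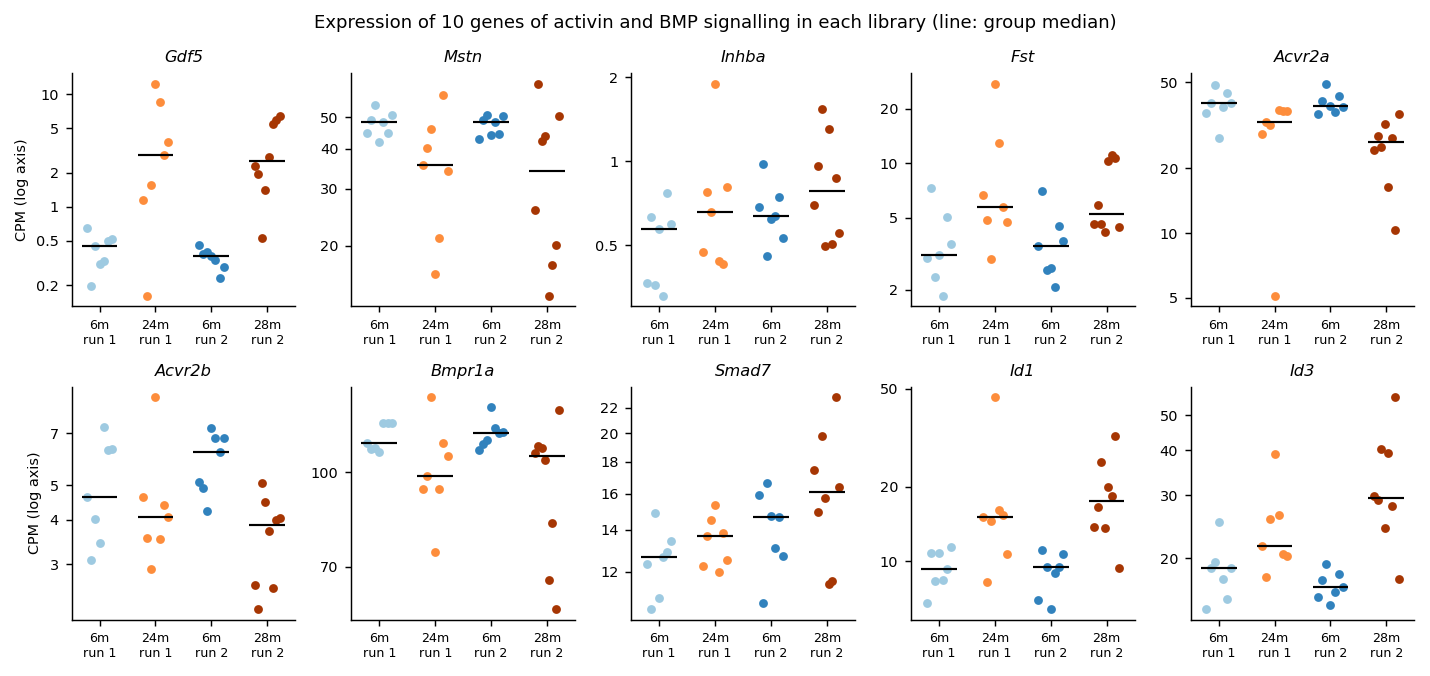
Expression of the 10 genes in CPM (log axis) in each of the 29 libraries, by age and run; points are libraries and lines are group medians. Gdf5 spans 0.527 to 6.35 CPM in the 28m mice and 0.235 to 0.456 in the 6m mice of the same run, and Mstn spans 14.0 to 63.6 CPM at 28m against 43.0 to 50.9 at 6m.

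Gdf5, a BMP-family ligand known for its part in joint formation and in the response of muscle to denervation, had the largest change of the 10. In the second run it lay at 0.235 CPM in the lowest, 0.362 in the median and 0.456 in the highest 6m mouse, which is 6 to 10 reads per library. The 28m mice ranged from 0.527 through a median of 2.56 to 6.35 CPM, or 11 to 163 reads. All 8 of the 28m mice were above all 7 of the 6m mice of the run, though the first-run library of 6m replicate 1, at 0.652 CPM, lay above 28m replicate 3. Replicates 6, 7 and 8 were highest, with 5.43, 5.91 and 6.35 CPM. The mean rose from 0.352 ± 0.0730 (SD, n = 7) to 3.34 ± 2.23 CPM (n = 8), a 9.49-fold difference of means and a log2 fold change of 3.25 ± 0.47 (SE; edgeR adjusted p = 0.000346). The filter on low counts asked for 0.425 CPM in 7 libraries, which 8 of the 28m and 1 of the 6m libraries reached, so Gdf5 entered the test through the group where it is high. Without the filter the log2 fold change was 3.24 (edgeR adjusted p = 0.000284). Mice at 24m ranged from 0.162 through 2.91 to 12.4 CPM, against 0.199, 0.452 and 0.652 CPM for the lowest, median and highest of the first-run 6m libraries. At 24m, 6 of 7 mice lay above all 6m libraries and replicate 2 below all of them, with 5 reads. The log2 fold change at 24m was 3.37 ± 0.70 (edgeR adjusted p = 0.0961), which did not pass. It passed without 24m replicate 2 (3.58, edgeR adjusted p = 0.0302), by DESeq2 (adjusted p = 6.09e-05) and against the second-run 6m libraries (edgeR adjusted p = 0.0408). In 1 fit over all 29 libraries it passed as well (edgeR adjusted p = 0.0049), but that fit took the paired libraries of the 6m mice as independent. With 24m replicate 4 left out the log2 fold change was 2.83 (edgeR adjusted p = 0.0857). Of a list of genes known to respond to denervation, such as Chrng, Myog and Gadd45a, 6 of 10 were higher at 28m, against 24.3% of all genes, and none lower, with a sum of 98.2 to 644 CPM against 50.3 to 147 at 6m and with none of them at 0 in a whole group. In both runs the highest 6m sum was that of replicate 2, with the next 6m mouse at 73.1 CPM in the second run and 68.7 in the first. At 24m none of the 10 listed genes passed in edgeR. The sum was 74.8 to 1120 CPM, against 55.2 to 143 in the first-run 6m libraries, with the highest values in 24m replicates 4 and 5. Their part in the change of Gdf5 was not tested.

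Mstn kept a narrow range in young muscle and a wide one in old muscle. The 6m libraries of the second run held 43.0 CPM at the lowest, 48.3 at the median and 50.9 at the highest, and the same mice in the first run held 42.0, 48.4 and 54.5. At 28m the lowest mouse had 14.0, the median 34.1 and the highest 63.6 CPM. Of the 8 mice at 28m, 5 were below all 6m mice and 1 (replicate 2) was above all of them. The mean went from 47.2 ± 3.26 (n = 7) to 34.7 ± 17.9 CPM (n = 8), and the log2 fold change of -0.44 ± 0.26 did not pass (edgeR adjusted p = 0.173). It passed without 28m replicate 2 (-0.62, edgeR adjusted p = 0.0485) and after correction for gene length and GC content (-0.73, edgeR adjusted p = 0.0478). At 24m, with 16.3, 35.7 and 58.9 CPM for the lowest, median and highest mouse, the log2 fold change was -0.40 ± 0.22 (edgeR adjusted p = 0.464), and -0.28 without replicate 4. Again 5 mice lay below all 6m mice and 1 above. The spread was then compared for each of the 10 genes, a test chosen after the values had been seen. The mean distance of Mstn from the group median was 0.693 on the log2 scale at 28m and 0.0828 at 6m (exact permutation test over 6435 assignments, two-sided, p = 0.000622, adjusted over 10 genes p = 0.00622). Left out one by one, no mouse took the unadjusted p over 0.05 (exact permutation p from 0.00133 to 0.0274). These values were not adjusted over the 10 genes. For the other 9 genes the spread did not pass after adjustment, with the lowest value for Gdf5 (exact permutation test, adjusted p = 0.0839), and at 24m none of the 10 passed (Mstn exact permutation p = 0.0495, adjusted p = 0.248). A wider spread in old mice was the rule over all genes, with a larger SD at 28m in 87.6% of them.

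Inhba encodes the subunit that forms activin A. It was near the lower limit of detection in all groups, with 8 to 23 reads per library in the second-run 6m mice and 12 to 35 at 28m. The 6m mice held 0.456, 0.636 and 0.981 CPM at the lowest, median and highest, and the 28m mice 0.498, 0.784 and 1.53. The ranges overlapped, with 2 of 8 mice at 28m above all 6m mice. The log2 fold change was 0.37 ± 0.27 at 28m (edgeR adjusted p = 0.261) and 0.61 ± 0.35 at 24m (edgeR adjusted p = 0.482), where the highest value, 1.89 CPM, came from replicate 4. Without that library it was 0.21. At 24m the filter on low counts asked for 0.394 CPM in 7 libraries, which 7 of the 24m and 4 of the 6m libraries reached. Inhba thus entered the test at 24m through the older group, where its mean is higher. The value at 28m moved to 0.74 against the first-run libraries of the same 6m mice (edgeR adjusted p = 0.0708) and to 0.22 without 28m replicate 3, and it passed in neither.

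Fst, whose product follistatin binds activins and myostatin and keeps them from their receptors, was higher at 28m. The 6m mice of the second run lay at 2.08, 3.51 and 7.03 CPM for the lowest, median and highest, and the 28m mice at 4.15, 5.28 and 11.1. The highest 6m mouse was replicate 2, with the next at 4.53 CPM. The groups overlapped, and the 3 mice above all 6m mice were replicates 5, 6 and 7, with 10.3, 11.1 and 10.7 CPM. The mean rose from 3.73 ± 1.68 (n = 7) to 6.97 ± 3.11 CPM (n = 8), a log2 fold change of 0.91 ± 0.30 (edgeR adjusted p = 0.0206). The call was lost against the first-run libraries of the same 6m mice (0.89, edgeR adjusted p = 0.0517) and in 1 fit over all libraries (0.94, edgeR adjusted p = 0.0629). At 24m the lowest, median and highest mice had 2.98, 5.73 and 27.5 CPM, against 1.86, 3.12 and 7.33 for the first-run 6m libraries. The log2 fold change of 1.32 ± 0.47 did not pass (edgeR adjusted p = 0.328), and it was 0.74 ± 0.35 without replicate 4, the mouse with the highest value.

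Both activin type II receptors, which bind myostatin, activins and GDF11, were lower at 28m. Acvr2a lay at 35.8, 39.0 and 49.3 CPM in the lowest, median and highest 6m mouse and at 10.3, 26.4 and 35.7 CPM at 28m. No 28m mouse reached the lowest 6m mouse of the run, though replicate 8 came close, with 35.7 CPM. In the first run 6m replicate 4, one of the libraries that stood apart, held 27.6 CPM of Acvr2a, so the groups are apart only within the second run. Against the first-run libraries the log2 fold change was -0.66 (edgeR adjusted p = 0.0305). The mean fell from 40.4 ± 4.67 (n = 7) to 25.0 ± 8.25 CPM (n = 8), a log2 fold change of -0.69 ± 0.19 (edgeR adjusted p = 0.00832). Acvr2a overlaps Orc4 on the opposite strand, and which strand setting was used in counting is not stated, so reads of that gene may be included. The same limit holds for Gdf5, Inhba, Fst, Acvr2b and Bmpr1a, which also overlap genes on the opposite strand. Acvr2b lay at 4.22, 6.18 and 7.23 CPM at 6m and at 2.25, 3.86 and 5.08 at 28m, where 6 of 8 mice were below all 6m mice. Its mean fell from 5.88 ± 1.14 to 3.60 ± 1.01 CPM, a log2 fold change of -0.70 ± 0.18 (edgeR adjusted p = 0.00564). Against the first-run 6m libraries, in which it ranged from 3.08 to 7.30 CPM, the log2 fold change was -0.47 and did not pass (edgeR adjusted p = 0.11).

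Bmpr1a, a type I receptor for BMPs, did not pass. Its 6m mice held 109, 116 and 128 CPM at the lowest, median and highest, and its 28m mice 59.7, 106 and 126. Of the 28m mice, 5 lay below all 6m mice, with replicates 5, 6 and 7 lowest at 66.5, 82.6 and 59.7 CPM. The log2 fold change was -0.27 ± 0.13 (edgeR adjusted p = 0.102), and it passed when replicate 8, the highest 28m mouse, was left out (-0.34, edgeR adjusted p = 0.037). At 24m the log2 fold changes were -0.39 ± 0.30 for Acvr2a, -0.12 ± 0.26 for Acvr2b and -0.16 ± 0.11 for Bmpr1a, none of which passed (edgeR adjusted p = 0.578, 0.849 and 0.53). In 24m replicate 4 Acvr2a was at 5.11 CPM against 28.7 to 37.3 in the other 6 mice. Without that library the values were -0.21 for Acvr2a, -0.37 for Acvr2b and -0.10 for Bmpr1a.

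Smad7, the inhibitory Smad that both branches induce and that blocks their receptors, did not pass at either age. The 6m mice of the second run held 10.7, 14.7 and 16.6 CPM at the lowest, median and highest, and the 28m mice 11.5, 16.1 and 22.9. Ranges overlapped, with replicates 5 and 6 lowest and replicate 7 highest at 28m. The log2 fold change was 0.22 ± 0.14 at 28m (edgeR adjusted p = 0.22) and 0.11 ± 0.10 at 24m (edgeR adjusted p = 0.624), where it was 0.07 without replicate 4. At 28m it was 0.13 without replicate 7 and 0.39 against the first-run 6m libraries (edgeR adjusted p = 0.0545).

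The BMP target genes Id1 and Id3, which encode inhibitors of the myogenic and other helix-loop-helix factors, were both higher at 28m. Id1 lay at 6.41, 9.50 and 11.1 CPM in the lowest, median and highest 6m mouse and at 9.38, 17.5 and 32.1 at 28m. Id3 lay at 14.9, 16.7 and 19.3 CPM at 6m and at 17.5, 29.5 and 56.2 at 28m. For each of the genes 7 of 8 mice at 28m were above all 6m mice, and the mouse that was not was replicate 8, which had the highest Gdf5. The mean of Id1 rose from 9.03 ± 1.77 (n = 7) to 18.7 ± 7.21 CPM (n = 8), a log2 fold change of 1.06 ± 0.22 (edgeR adjusted p = 0.00198). That of Id3 rose from 16.9 ± 1.50 to 33.1 ± 11.9 CPM, a log2 fold change of 0.98 ± 0.19 (edgeR adjusted p = 0.00137). After correction for gene length and GC content, the changes of these short transcripts were smaller and still passed, at 0.53 for Id1 and 0.62 for Id3 (edgeR adjusted p = 0.00861 and 0.00183). Replicate 7, the library with the high immune sum, had the highest value of both, and without it the log2 fold changes were 0.90 and 0.83 (edgeR adjusted p = 0.00275 and 0.00133). The part of immune cells was not tested. Endothelial cells also express Id genes, and 7 of 10 endothelial markers were lower and 1 higher at 28m (22.9% and 24.3% of all genes), with a sum of 337 to 510 CPM against 597 to 662 at 6m and no marker at 0. Their part in the change of Id1 and Id3 was not tested.

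At 24m Id1 ranged from 8.23 through 15.1 to 46.2 CPM, against 6.76 to 11.5 in the first-run 6m libraries, and 5 of 7 mice were above all of these. Id3 ranged from 17.8 through 21.6 to 39.0 CPM, against 14.5 to 25.2, and 3 of 7 were above. The log2 fold changes were 0.95 ± 0.31 for Id1 and 0.41 ± 0.17 for Id3, and neither passed (edgeR adjusted p = 0.296 and 0.387). Replicate 4 was highest for both, and without it the values were 0.51 ± 0.16 and 0.26 ± 0.13. Over the 10 genes at 24m, none passed in edgeR, where 0.084% of 13103 genes did, and Gdf5 passed by DESeq2. Without 24m replicate 4 and the first-run library of 6m replicate 4, an alternative chosen after seeing the data, the log2 fold changes were 2.79 for Gdf5, 0.71 for Fst, 0.54 for Id1, 0.35 for Id3, 0.23 for Inhba, 0.04 for Smad7, -0.11 for Bmpr1a, -0.27 for Acvr2a, -0.31 for Mstn and -0.44 for Acvr2b, and none passed (lowest edgeR adjusted p = 0.0701, for Gdf5). With all libraries, an unadjusted p under 0.05 was reached by 4 (Gdf5, Fst, Id1 and Id3), against 11.8% of all genes. None of the 10 separated the ages completely at 24m, where 0.343% of genes lay above all 6m mice and 0.252% below them in every 24m mouse. The 24m and 28m comparisons share the 6m mice, and the plot of log2 fold changes sets them side by side.

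**Figure D2:**
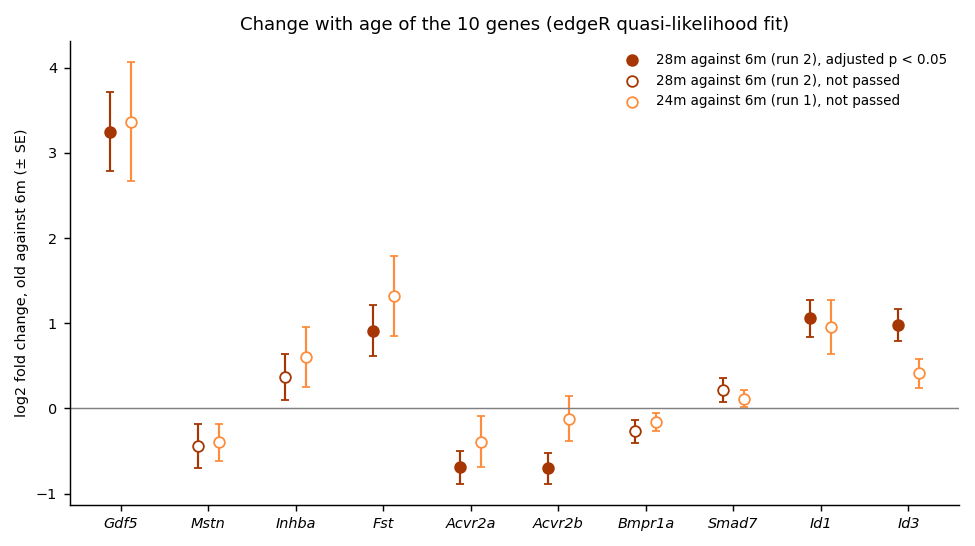
Log2 fold change of the 10 genes at 28m and at 24m against the 6m libraries of the same run; bars are the SE of the edgeR quasi-likelihood fit, and filled points have an adjusted p under 0.05. Filled points are Gdf5, Fst, Id1 and Id3 above 0 and Acvr2a and Acvr2b below 0, all at 28m.

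Whether the change differed between the ages was tested in 1 model of all libraries. That model took the paired libraries of the 6m mice as independent, and a fit with the mouse as a block is given further below. No gene of 13455 passed in edgeR (0% at an adjusted p under 0.05, 12% at an unadjusted p under 0.05), and DESeq2 called 2 genes, neither of them among the 10. The differences between the log2 fold change at 28m and that at 24m ran from -0.57 for Acvr2b to 0.58 for Id3, and Id3 alone of the 10 had an unadjusted p under 0.05 in edgeR. Its p was 0.0406 before and 0.411 after the edgeR adjustment. Without 24m replicate 4, 1657 genes passed, and Id3 was among them with a difference of 0.75 (edgeR adjusted p = 0.0479). The paired libraries of the 6m mice show what preparing and sequencing a library again did to these genes. Fitted with the mouse as a block, no gene of 12884 passed (0% in edgeR). The log2 differences of the 9 genes tested lay between -0.12 for Id3 and 0.37 for Inhba, and Smad7 alone had an unadjusted p under 0.05. Its edgeR adjusted p was 0.498. Gdf5 was below the filter on low counts in that comparison.

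Among the old mice, the lowest Mstn and the highest Fst fell in the same animals. Replicates 5, 6 and 7 at 28m held the 3 lowest values of Mstn (14.0, 17.4 and 20.1 CPM) and the 3 highest of Fst, and the 3 lowest of Bmpr1a. At 24m replicates 4 and 5 held the 2 lowest values of Mstn (16.3 and 21.1 CPM) and the 2 highest of both Fst (27.5 and 13) and Gdf5 (12.4 and 8.46). The same mice had the highest sums of the denervation list, at 229, 644 and 215 CPM in the 28m mice against 98.2 to 172 in the others, and at 946 and 1118 CPM in the 24m mice. Among them are the libraries that deviated most from their groups, 24m replicate 4 and 28m replicate 7. This was noticed in the values, and neither the pattern nor the part of these markers and libraries in it was tested. At 28m the highest Gdf5 was in replicate 8, beside Mstn at 50.5 and Fst at 4.48 CPM. Other old mice had Mstn below all 6m mice of their run with Fst inside the 6m range. Examples are 28m replicate 1, with Mstn at 25.9 and Fst at 4.64 CPM, and 24m replicate 7, with 34.2 and 4.73.

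**Figure D3:**
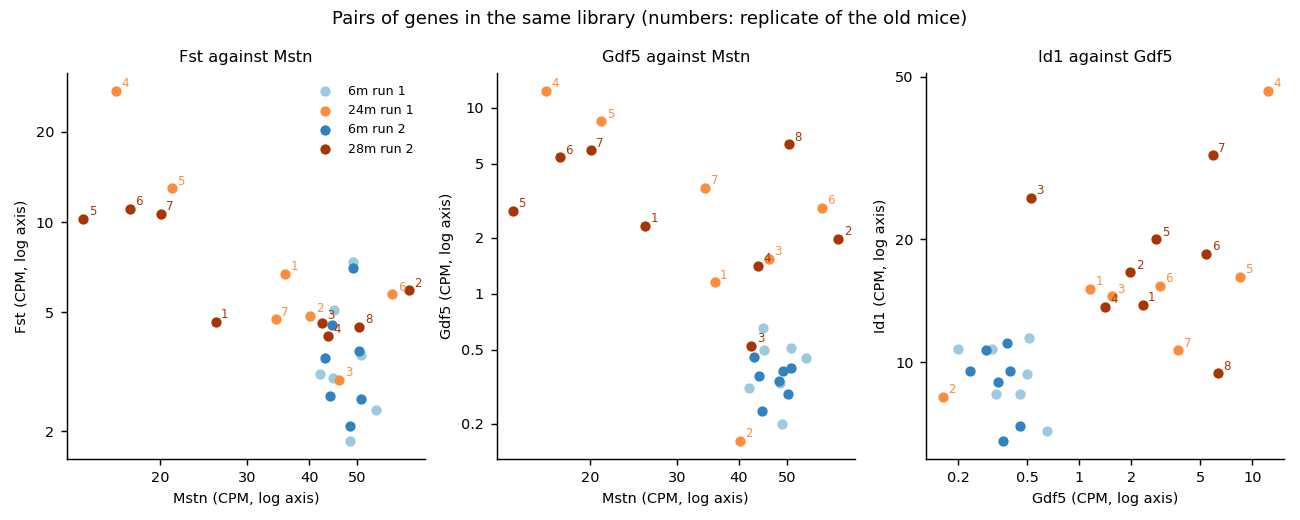
Fst against Mstn, Gdf5 against Mstn and Id1 against Gdf5 in CPM (log axes), 1 point per library, colored by age and run and numbered by replicate for the old mice. The 28m replicates 5, 6 and 7 and the 24m replicates 4 and 5 lie at low Mstn and high Fst, while 6m libraries stay between 42.0 and 54.5 CPM of Mstn.

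Across the 8 mice at 28m, log2 CPM of Gdf5 was correlated with that of each of the other 9 genes, and none passed. For Fst, Pearson's r was 0.54 and Spearman's rho 0.405 (exact permutation p = 0.161 and 0.327, adjusted over 9 genes p = 0.721 and 0.977), and r was 0.869 without the 2 mice farthest from the median of Gdf5. For Mstn, r was -0.392 and rho -0.262 (exact permutation p = 0.335 and 0.536, adjusted p = 0.721 and 0.977), and r was -0.684 without those mice. For Id1, r was -0.171 and rho -0.0714 (exact permutation p = 0.688 and 0.882, adjusted p = 0.721 and 0.977), and r was 0.792 without them, so its sign rests on these 2 mice. Over the 7 mice at 24m, correlations added later did not pass either. The lowest adjusted p for r was 0.279, shared by Fst, Id1 and Id3 (exact permutation test). For Id3, r was 0.752 and rho 0.679 (exact permutation p = 0.0534 and 0.11), and r was 0.251 without 2 mice. For Id1, r was 0.745 and rho 0.75 (exact permutation p = 0.0685 and 0.0663), and r was -0.000637 without 2 mice, so the relation rests on these. For Fst, r was 0.682 and rho 0.536 (exact permutation p = 0.0929 and 0.236), and r was 0.66 without them. The mean log2 CPM of the denervation list, also added later, gave r = 0.658 and rho = 0.429 with Gdf5 at 28m (exact permutation p = 0.0782 and 0.299, adjusted over the 2 ages p = 0.0782 and 0.299) and r = 0.708 and rho = 0.714 at 24m (exact permutation p = 0.074 and 0.0881, adjusted p = 0.0782 and 0.176), and r was 0.598 and 0.923 without 2 mice each. That list contains Gadd45a.

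The genes with the pattern most like that of Gdf5 over the 29 libraries were Gadd45a, Ccdc136, Myl12a, Wbscr27 and Klhdc8a, by the root mean square difference of standardised log2 CPM (0.46 to 0.518, against a median of 1.43 over 13455 genes). Those most like Mstn were Jph1, at 0.316, which encodes a protein of the junctions between the surface and calcium store membranes of muscle, followed by Fut10, Pds5b, Strbp and Usp25. The nearest to Inhba was Cd81, at 0.569, then Trim12c, Cks1b, Dpysl2 and Npdc1, all farther away than those of Gdf5 and Mstn.

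Of 91 other genes of the pathway, 74 were tested at 28m, and 8 were higher and 30 lower. Their median log2 fold change was -0.287, against 0.00909 over all genes, and 38 of 74 compares with 47.3% of all genes. After correction for gene length and GC content 7 were higher and 18 lower with a median of -0.0904, and against the first-run 6m libraries 5 were higher and 19 lower. At 24m none of the 75 tested passed in edgeR, and 2 did by DESeq2. The strip plot of the pathway shows the values at 28m.

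Of the ligands, 12 of 24 were tested, 1 was higher and 5 lower, with a median of -0.164 over those tested. Beside this and the lists that follow stand the 24.3% higher and 22.9% lower of all genes, and the counts of ligands, antagonists and receptors that passed are near the 47.3% of both together. Bmp8a fell by 1.94 on the log2 scale (edgeR adjusted p = 0.00828), from 0.926 to 0.240 CPM. It entered the test with 6 libraries at 6m and 1 at 28m over the filter on low counts, mostly the group where it is high, and it was tested in 7 of the 15 fits with a mouse left out. Bmp5 fell by 1.37 (edgeR adjusted p = 0.000865), from 8.79 to 3.40 CPM. Gdf11, the close relative of myostatin, fell by 1.09 (edgeR adjusted p = 0.0109), from 6.05 to 2.83 CPM, and its call was lost against the first-run 6m libraries (-0.93, edgeR adjusted p = 0.0551). Inha, the inhibin subunit that opposes activins rather than acting as one, rose by 0.74 (edgeR adjusted p = 0.000786), from 3.82 to 6.35 CPM, and by 0.42 after the length and GC correction (edgeR adjusted p = 0.035). Of 22 antagonists and other extracellular regulators 18 were tested, 1 was higher and 7 lower, with a median of -0.349. Ltbp4, which holds latent TGF-beta in the matrix, fell by 0.89 (edgeR adjusted p = 0.00195), or by 0.57 after that correction, and Bmp1, a protease that frees myostatin from its propeptide and so is no antagonist, fell by 0.84 (edgeR adjusted p = 0.00448), a call that was lost after the correction (-0.37, edgeR adjusted p = 0.134). Wfikkn1, which binds myostatin and GDF11, rose by 0.94 (edgeR adjusted p = 0.0185), from 0.321 to 0.622 CPM. It entered the test through the 28m group, with 7 libraries there and 1 at 6m over the filter on low counts, and its call was lost after the length and GC correction at a similar value (0.82, edgeR adjusted p = 0.0512).

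**Figure D4:**
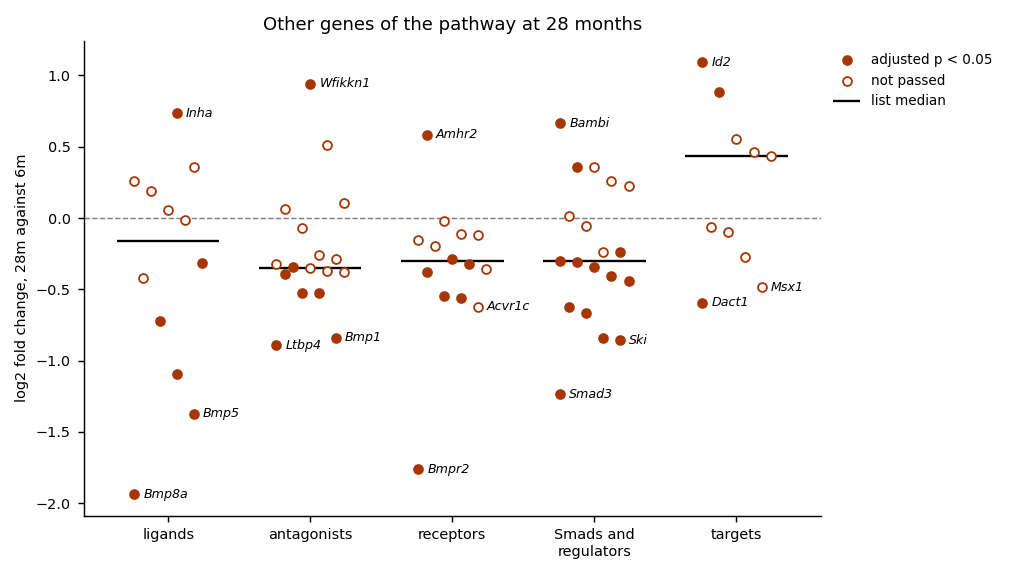
Log2 fold change at 28m against 6m of other pathway genes tested, by role; filled points have an edgeR adjusted p under 0.05 and lines are the medians of the whole lists. The medians are -0.164 for ligands, -0.349 for antagonists, -0.303 for receptors, -0.302 for Smads and their regulators and 0.434 for targets. The antagonist list also holds other extracellular regulators, such as Bmp1, which is no antagonist.

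All 14 other receptors and co-receptors were tested, 1 was higher and 6 lower, with a median of -0.303. Bmpr2, the type II receptor for BMPs, fell by 1.76 (edgeR adjusted p = 0.00426), from 36.6 to 10.8 CPM, and the co-receptors Rgma and Rgmb fell by 0.56 and 0.55 (edgeR adjusted p = 0.0169 and 0.0117). Amhr2, the receptor of anti-Müllerian hormone, rose by 0.58 (edgeR adjusted p = 0.0166). Against the first-run 6m libraries the calls of all 3 were lost, at -0.33 for Rgma, -0.46 for Rgmb and 0.46 for Amhr2 (edgeR adjusted p = 0.221, 0.0534 and 0.0958). After the length and GC correction those of Rgmb and Amhr2 were lost, at -0.27 and 0.35 (edgeR adjusted p = 0.0827 and 0.12), while Rgma still passed at -0.33. All 19 Smads and regulators of Smads were tested, 2 were higher and 11 lower, with a median of -0.302. Smad3, the effector of myostatin and activins, fell by 1.24 (edgeR adjusted p = 0.000706), from 178 to 75.2 CPM. Ski, a repressor of Smad-driven transcription, fell by 0.86, and the ubiquitin ligases Smurf2 and Smurf1, which remove Smads and their receptors, fell by 0.84 and 0.67 (edgeR adjusted p = 0.000584, 0.000361 and 0.00525). After the length and GC correction the value of Smurf1 was -0.42 and still passed.

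Of 12 other targets 11 were tested, 3 were higher and 1 lower, with a median of 0.434. The 4 of 11 that passed compare with 47.3% of all genes. Id2, of the same family as Id1 and Id3, rose by 1.09 (edgeR adjusted p = 0.00302), from 3.60 to 7.60 CPM. Hey1, a target of BMP and Notch signalling, rose by 0.88 (edgeR adjusted p = 0.000239), from 3.87 to 7.11 CPM. Against the first-run 6m libraries its value was 0.63 and still passed (edgeR adjusted p = 0.00672). Dact1, an intracellular regulator of Wnt signalling, fell by 0.59 (edgeR adjusted p = 0.0243), and its call was lost without 6m replicate 2 (edgeR adjusted p = 0.0639) or 6 (edgeR adjusted p = 0.0615).

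Markers of other cell types were compared at 28m in the same way, beside the 24.3% of all genes that were higher and the 22.9% that were lower. Of the fibroblast markers 5 of 10 were lower (a sum of 422 to 1560 CPM against 697 to 3760 at 6m). The highest 6m sum came from replicate 2 alone, with the next 6m mouse at 1603 CPM. Of the smooth muscle and pericyte markers 4 of 8 were lower and 1 higher (217 to 360 against 339 to 410). Of the satellite cell markers 2 of 5 tested were lower (28.5 to 44.2 against 34 to 47.6). Of the adipocyte markers 2 of 7 were higher (148 to 601 against 164 to 200), a share near that of all genes. In the tendon list 1 of 8 was higher and 1 lower, in the Schwann cell list 1 of 8 was higher, in the muscle list 1 of 6 was higher and 1 lower, and of the 7 immune markers and the 1 erythrocyte marker tested none passed. Hba-a1 and Hba-a2 were at 0 in all libraries. At 24m no marker of any list passed in edgeR, and the part of these cells in the values of the pathway genes was not tested.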

How the data were processed

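Single-end reads of 75 bases were demultiplexed by the authors (bcl2fastq 2.20), aligned with STAR 2.5.4b to mm10 and counted per gene. The deposited table holds these counts without normalization for 22537 symbols and no column without a sample. The strand setting of the counting is not given in the sources used here. Of the 10 genes, 6 overlap a gene on the opposite strand (Gdf5, Inhba, Fst, Acvr2a, Acvr2b and Bmpr1a). The labels give a smaller amount of RNA per library than the methods do.

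Ages were compared on the counts by edgeR 4.0.16, run in R 4.3.3 (filterByExpr, TMM over the libraries of a comparison, quasi-likelihood F test, Benjamini-Hochberg adjustment at 0.05), with a prior count of 2 for log2 CPM. The SE of a log2 fold change was derived from the F statistic. At 3 counts or fewer a gene is at the floor, and intervals of depth cover counting error only. RPKM used exonic lengths of GENCODE M21 (GRCm38), in which 20202 symbols were found directly, 1888 through a synonym and 447 not. Pairing of the 6m libraries came from the repeat mark in their titles. Their deviations correlated by 0.218 to 0.814 within the 7 mice, each mouse matching itself best.

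The 10 genes and all lists were chosen with earlier results of these data known. Named were these 10, up to 4 genes per pathway list with the largest change past the threshold, and the 5 most like Gdf5, Mstn and Inhba. The alternatives were DESeq2 1.42.0, limma-voom (limma 3.58.1), other scalings and filters, the 6m libraries of the other run, a length and GC correction, 1 fit over all libraries and leaving out each mouse. The 1 fit over all libraries had no term for the mouse, so the paired libraries of the 6m mice counted as independent. The scripts were tested on simulated data. The physical scores of the mice were not analysed here, and single values of some listed genes are left out of the text and figures.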

Additional observations from a re-analysis of the deposited data

Results flagged for a closer look

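In 6 of 40 groups of values a library lay farther from its group than Dixon's 95% limit allows, and in all 6 it was 24m replicate 4. Chance flags about 1 in 20 groups, or 2 of 40. That library held the lowest Acvr2a, at 5.11 CPM with the next at 28.7, and the highest Acvr2b, at 8.83 CPM with the next at 4.64. It also held the highest Fst (27.5 CPM, next 13), Id1 (46.2 CPM, next 16.2), Id3 (39.0 CPM, next 26.4) and Inhba (1.89 CPM, next 0.810). The 6 flags come from 1 library that stood apart over all genes, so they are not separate observations.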

How the results depend on the processing

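At 28m the count of genes passing fell from 6140 to 2981 against the first-run 6m libraries (between 5297 and 6688 with a mouse left out), with 24 other pathway genes there and 25 after the length and GC correction, against 38. Of the 10 genes, 4 passed against the first-run 6m libraries and between 6 and 7 with a mouse left out. At 24m the count of 11 genes became 216 by DESeq2, 46 against the second-run 6m libraries, 152 in 1 fit over all libraries, 17 after the length and GC correction, 4 with at least 10 counts in every library and 4 to 30 with a mouse left out (30 without replicate 4), and 121 without 24m replicate 4 and the first-run library of 6m replicate 4, a choice made after seeing the data. Of the 10 genes, 1 passed by DESeq2, against the second-run 6m libraries and in 1 fit, and 0 to 1 with a mouse left out. Of the other pathway genes, 2 passed by DESeq2, and 1 against the second-run 6m libraries, in 1 fit over all libraries and without those 2 libraries. Smad7 at 24m turned to -0.0563 against the second-run 6m libraries.

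The difference between the age effects gave 2 genes by DESeq2 and 0 to 1657 with a mouse left out (1657 without 24m replicate 4), with 0 to 1 of the 10 genes and 0 to 5 other pathway genes. With the mouse as a block (limma-voom, consensus correlation 0.735) it gave no gene, and the difference for Gdf5, which never passed, turned to 0.40, and the block changed no other call. After the length and GC correction that of Bmpr1a turned to 0.00941 and that of Id1 to -0.0768. With a mouse left out, they ran from -0.326 to 0.436 for Gdf5, -0.208 to 0.128 for Mstn, -0.382 to 0.191 for Inhba, -0.537 to 0.185 for Fst and -0.0529 to 0.574 for Id1. Between the runs, 0 to 186 genes passed with a mouse left out (186 without 6m replicate 4), with 0 to 1 other pathway genes. Correlations of Gdf5 with other genes at 28m, none past the threshold, changed sign with a mouse left out for Acvr2a (r from -0.514 to 0.173), Acvr2b (-0.499 to 0.121), Smad7 (-0.59 to 0.155), Id1 (-0.607 to 0.189) and Id3 (-0.617 to 0.201). The causes were not tested. Gdf5 and Inhba were not tested with at least 10 counts in every library. With 8 to 35 reads of Inhba per library in the second run, and 6 to 10 of Gdf5 at 6m, depth limits both.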
